A study of Homo sapiens with 6 samples.

Results

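The genes described here are 10 immediate early transcription factor genes and regulators: the AP-1 genes JUN, JUNB, JUND, FOS, FOSB and FOSL2, the zinc-finger genes EGR1, EGR2 and EGR3, and IER2. They were chosen by symbol, and all 10 had 1 row each among the 20036 genes of the deposited table. Their mRNA was measured by poly(A) RNA-seq in MV411 cells, an established leukaemia cell line of the monocytic branch that depends on mutant FLT3 and carries a rearranged KMT2A gene, with genotype WT in the labels. Cells received corilagin, a plant ellagitannin, or DMSO, the solvent control, for 48 h, with 3 libraries per group. The dose and the number of separate cultures are not given in the sources used here, so p-values measure the spread between libraries only, which may be technical.

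AP-1 is a dimer of basic leucine zipper proteins. JUN proteins pair with each other or with FOS proteins, whereas FOS proteins need a JUN partner to bind DNA. EGR proteins bind GC-rich sites through 3 zinc fingers. Most of these genes are transcribed within minutes of a growth factor or stress signal, chiefly through ERK and the other MAP kinases acting on serum response factor, ETS-type cofactors and CREB or ATF proteins, and their mRNAs are short-lived. In the myeloid lineage EGR1, JUN and FOS are known for their part in monocytic differentiation.

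At 48 h of corilagin, FOS, FOSB and EGR1 mRNA stood at 0.433 to 0.560 of their DMSO levels, JUNB and IER2 at 0.694 and 0.663, and JUN at 1.67 times its DMSO level. JUND and FOSL2 did not pass the test, EGR3 was lower in every corilagin library without passing, and EGR2 was too low to be tested. FPKM scales fragments by gene length and by library total. Of the 9 members averaging 1 FPKM or more, 5 were lower and 1 higher at an adjusted p under 0.05 in limma. That threshold was passed by 25.4% of all 9868 genes tested, 11.9% higher and 13.5% lower. The median log2 difference of the 9 genes was -0.55, against 0.04 for all genes tested. For 7 of the 9 the 3 corilagin values lay entirely on one side of the 3 DMSO values, 1 above and 6 below, which was also true of 48.3% of all genes tested (25% above, 23.3% below). In these bulk samples, fewer cells of a type and less RNA per cell cannot be told apart. An exact permutation test of 3 against 3 libraries cannot go below p = 0.1, the value it gave for each of these 7 genes.

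**Figure D1:**
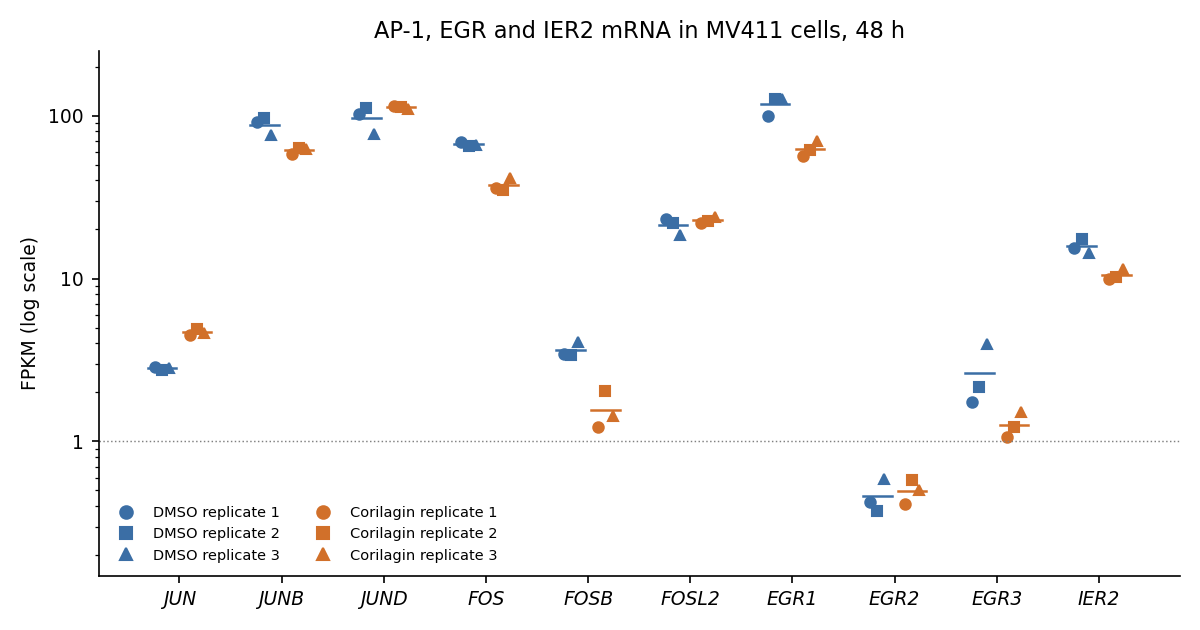
FPKM of the 10 genes in each library on a log scale, with DMSO in blue, corilagin in orange, 1 symbol per replicate number and a bar at the group mean. JUN is higher and JUNB, FOS, FOSB, EGR1, EGR3 and IER2 are lower in all 3 corilagin libraries, and the dotted line marks the filter of 1 FPKM.

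The libraries held 17776956 to 21640689 fragments, as inferred from the FPKM values, and the DMSO group was split. DMSO replicates 1 and 2 read GC-rich transcripts more and GC-poor ones less than the other 4 libraries did. In the eighth of genes with the highest GC content (61.1 to 76.8%), where JUNB, JUND and IER2 lie, the median gene of DMSO replicates 1 and 2 was at 0.23 and 0.22 log2 units from its mean, that of DMSO replicate 3 at -0.10 and those of the corilagin libraries between -0.15 and -0.09. The difference of each tested member is therefore also given with this GC trend removed from every library, a setting in which 45.4% of 9859 genes passed (26.6% higher, 18.8% lower) and 8 of the 9 members did, 3 higher and 5 lower. Calls over all genes also moved with single libraries: 3.25, 3.11 and 3.59% of genes passed without corilagin replicate 1, 2 or 3, 8.63, 5.28 and 77.3% without DMSO replicate 1, 2 or 3, and 38% against DMSO replicate 3 alone. The share was 27.1% with equal library sums (16.4% higher, 10.7% lower), 29.2% with replicate number as a block and 42.7% with that block and the GC trend removed. Of the markers checked, 7 of 10 monocytic ones exceeded 1 FPKM in every library, while CD14 was at 0.0931 to 0.34 FPKM and CD68 at 0 to 0.0691 FPKM. HBA1 and HBB (erythroid), MS4A1 (B cell), COL1A2, COL3A1 and DCN (stromal), and EPCAM and KRT19 (epithelial) were at 0 throughout. The summed T cell and stromal markers stayed below 1 FPKM in every library. The 4 B cell markers summed to 5.13 to 6.25 FPKM with corilagin and 5.53 to 6.75 FPKM in DMSO, and the 4 epithelial ones to 3.44 to 4.04 and 3.91 to 5.12 FPKM, with 2 of each list above 1 FPKM in every library. Summed granulocyte precursor markers were 197 to 211 FPKM with corilagin and 361 to 462 FPKM in DMSO, and summed monocytic markers 177 to 182 and 231 to 257 FPKM. The monocytic markers did not move together. LYZ and S100A9 were lower (0.625 and 0.652 of DMSO) and ITGAM was higher (2.04-fold, limma adjusted p = 0.00404). CSF1R, CD33, FCGR1A and S100A8 did not pass, and CD14, MNDA and CD68 were too low to be tested. The part of these markers in the differences below was not tested.

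The 250 bases before the start of JUN, which rose, and of FOS, FOSB and EGR1, whose fold differences downward were the largest among the genes that passed, are shown first, to set the motifs of the gene that rose beside those of the genes that fell. They are written 5′ to 3′ on the gene's strand, from RefSeq (GRCh38.p14). RefSeq and GENCODE 29 place some starts differently, so the JUN window lies inside the GENCODE gene given below and the FOS window runs past its GENCODE start. Capitals mark, on either strand, the CREB and ATF half-site TGACG, the AP-1-like TGACATCA, the CArG box bound by serum response factor, and the TATAAA box.
JUN (chr1:58784048-58784297, minus strand): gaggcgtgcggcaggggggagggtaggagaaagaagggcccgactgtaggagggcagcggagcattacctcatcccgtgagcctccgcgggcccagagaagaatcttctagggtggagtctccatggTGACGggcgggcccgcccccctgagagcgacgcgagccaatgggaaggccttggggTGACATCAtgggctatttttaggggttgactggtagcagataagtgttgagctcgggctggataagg
FOS (chr14:75278578-75278827, plus strand): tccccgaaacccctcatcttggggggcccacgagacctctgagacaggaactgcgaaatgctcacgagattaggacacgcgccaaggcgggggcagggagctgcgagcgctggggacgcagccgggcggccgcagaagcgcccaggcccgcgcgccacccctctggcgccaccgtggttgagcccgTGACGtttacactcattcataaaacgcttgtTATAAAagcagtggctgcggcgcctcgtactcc
FOSB (chr19:45467746-45467995, plus strand): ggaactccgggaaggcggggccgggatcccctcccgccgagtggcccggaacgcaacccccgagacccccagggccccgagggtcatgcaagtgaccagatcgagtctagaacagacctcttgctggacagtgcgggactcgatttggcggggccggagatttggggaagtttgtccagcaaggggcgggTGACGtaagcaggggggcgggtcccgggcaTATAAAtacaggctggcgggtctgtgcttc
EGR1 (chr5:138465229-138465478, plus strand): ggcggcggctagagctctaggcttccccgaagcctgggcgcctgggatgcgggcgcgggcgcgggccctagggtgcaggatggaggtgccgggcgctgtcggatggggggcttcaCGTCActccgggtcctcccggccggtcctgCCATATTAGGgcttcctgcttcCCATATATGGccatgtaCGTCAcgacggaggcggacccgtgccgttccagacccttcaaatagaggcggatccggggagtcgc

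EGR1 held CArG boxes at positions -105 to -96 and -83 to -74 from its start, and EGR2 held 1 at -71 to -62 before one of its 3 starts. A CArG box stood in 2 of the 9 members with a sequence and in 1.16% of 35116 promoter windows of this length. Bases outside the windows were not searched. A motif not found here, such as the CArG box in FOS and FOSB, may therefore lie outside the window, and its absence from the gene is not shown. JUN held TGACATCA at -67 to -60, a sequence found in 2.37% of windows, and none of the 9 held TGANTCA (6.57% of windows). The full TGACGTCA was found in JUND alone of the 9 (1.65% of windows), overlapping its TGACG matches. TGACG, a motif chosen after the sequences were seen, was present before all 9 genes searched, in 9 of their 11 windows, against 21.2% of all windows. FOS and FOSB carried it at -64 to -60 and -60 to -56. FOSL2, which did not pass, and EGR1 also held a match close by, both at -66 to -62. EGR2 held one at -54 to -50 before one of its starts. In FOS and FOSB the match was followed by TATAAA at -33 to -28 and -30 to -25. TATAAA was found in 10.7% of windows and in JUNB as the only further member. JUN, which rose, and FOS, which fell, both held TGACG, as did every other gene searched. The part of these motifs in the differences was not tested.

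Among the JUN genes, which can form dimers on their own, JUN rose, JUNB fell and JUND did not pass. JUN, the founding member and a target of JUN N-terminal kinase, is a gene of 1 exon (chromosome 1, 58780788 to 58784327, minus strand, GENCODE 29). It was at 4.49, 4.92 and 4.63 FPKM in corilagin replicates 1, 2 and 3 and at 2.85, 2.74 and 2.84 FPKM in DMSO. The DMSO libraries were close together and all below the corilagin libraries. JUN rose from 2.81 ± 0.0626 to 4.68 ± 0.222 FPKM (SD, n = 3 per group), with a log2 difference of 0.58 (SE 0.0759) on the log2(FPKM + 1) scale and an adjusted p of 0.005 in limma. The pseudocount of 1 compresses a gene at this level, and 183 to 352 fragments per library stand behind its values. The difference was 0.78 with the GC trend removed (adjusted p = 0.00096).

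JUNB, which in many settings opposes JUN at AP-1 sites, also has 1 exon (chromosome 19, 12791496 to 12793315, plus strand). Its level was 57.8, 63.4 and 62.2 FPKM with corilagin and 91.5, 97.2 and 75.6 FPKM in DMSO. No corilagin value reached the lowest DMSO value, that of replicate 3. JUNB fell from 88.1 ± 11.2 to 61.2 ± 2.95 FPKM (log2 difference -0.51, SE 0.108, limma adjusted p = 0.0194). With a GC content of 64.9% it lies where DMSO replicates 1 and 2 read high, and its difference was -0.22 with the GC trend removed (adjusted p = 0.0162) and -0.30 against DMSO replicate 3 alone. JUNB no longer passed when any corilagin library, or DMSO replicate 1 or 2, was left out (limma adjusted p of 0.0646 to 0.0946). JUNB overlaps HOOK2 on the opposite strand, and the protocol does not state that strand was kept. HOOK2 stood at 7.47 ± 0.19 FPKM with corilagin and at 6.54 ± 0.336 FPKM in DMSO and did not pass (limma adjusted p = 0.135). With the GC trend removed HOOK2 was higher by 0.44 on the log2 scale and passed (limma adjusted p = 0.00714). FOSB, FOSL2, EGR3 and IER2 also overlap annotated genes on the opposite strand.

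JUND, the JUN gene that is expressed in most resting cells and is the least inducible of the 3 (chromosome 19, 18279760 to 18281622, minus strand), had the highest GC content of the members, 69.7%. It was at 115, 113 and 109 FPKM with corilagin and at 102, 111 and 77.3 FPKM in DMSO. The groups overlapped through DMSO replicate 2, and DMSO replicate 3 was the lowest library. The JUND means were 112 ± 3.22 and 96.5 ± 17.3 FPKM, and the log2 difference of 0.23 (SE 0.133) did not pass (limma adjusted p = 0.206). With the GC trend removed it was 0.56 and passed (adjusted p = 0.000207). Against DMSO replicate 3 alone, which shares the GC profile of the corilagin libraries, JUND was 0.53 higher, while without that library the difference was 0.08 (adjusted p = 0.121).

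The summed level of the 3 JUN genes was 175 to 182 FPKM with corilagin and 156 to 211 FPKM in DMSO, so the groups overlapped. Its make-up differed more. JUNB supplied 32.7 to 35.5% of the sum after corilagin and 46.2 to 48.5% in DMSO, JUND 61.9 to 64.8% against 49.6 to 52.5%, and JUN 2.54 to 2.71% against 1.30 to 1.82%. None of these 3 shares overlapped between groups, and as shares of 1 sum they are not independent. Ratios within a library do not depend on its scaling. They and the shares still carry its GC trend, since JUN, JUNB and JUND have GC contents of 56.7, 64.9 and 69.7%. JUNB stood at 0.546 ± 0.0368 of JUND after corilagin and 0.919 ± 0.0524 in DMSO, and the 3 DMSO libraries, DMSO replicate 3 included, lay between 0.879 and 0.978. JUNB exceeded JUN 13.1 ± 0.322 times after corilagin and 31.4 ± 4.50 times in DMSO, where replicates 1, 2 and 3 were at 32.1, 35.5 and 26.6. These ratios are described here without a test.

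**Figure D2:**
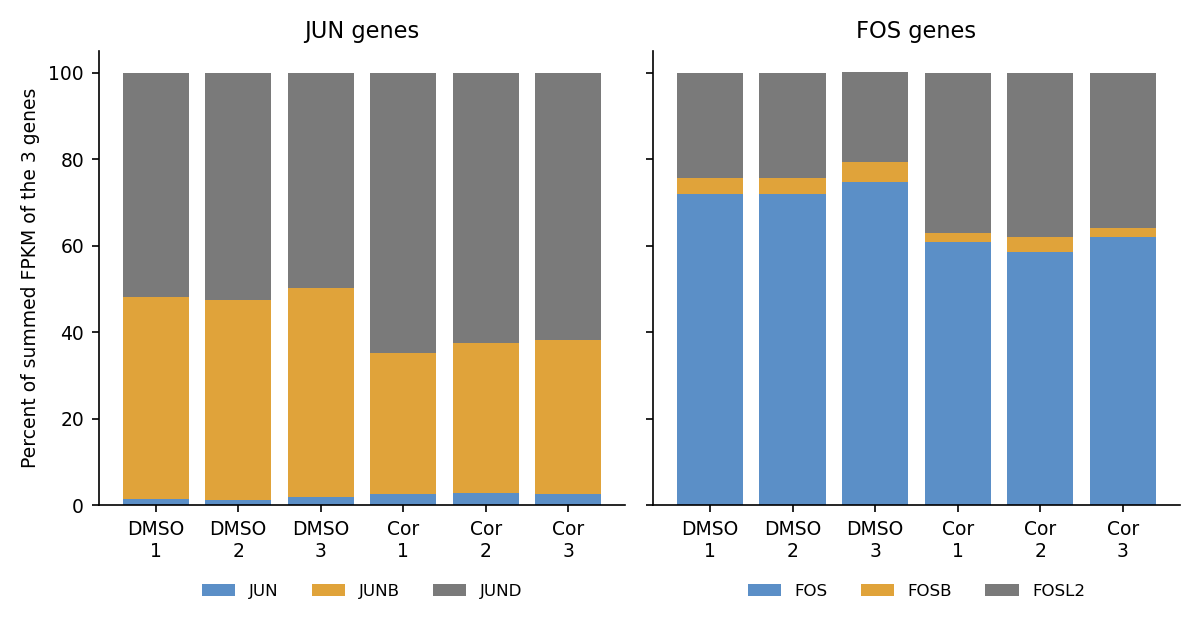
Share of each gene in the summed FPKM of the 3 JUN genes (left) and the 3 FOS genes (right), 1 bar per library, with the DMSO libraries first. JUNB makes up 46.2 to 48.5% of the JUN sum in DMSO and 32.7 to 35.5% after corilagin, and FOSL2 20.8 to 24.3% and 35.8 to 38.0% of the FOS sum.

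Of the FOS genes, whose proteins bind DNA only with a partner, the inducible FOS and FOSB fell and FOSL2 did not pass. FOS, the prototype immediate early gene (chromosome 14, 75278774 to 75282230, plus strand), was at 36.0, 34.8 and 41.2 FPKM with corilagin and at 68.5, 65.2 and 66.2 FPKM in DMSO. The DMSO libraries were close together, and the highest corilagin value was well below them. FOS fell from 66.6 ± 1.68 to 37.4 ± 3.41 FPKM, to 0.560 of DMSO (log2 difference -0.82, SE 0.0868, limma adjusted p = 0.00287). The fall was -0.68 with the GC trend removed (adjusted p = 0.000947) and -0.81 against DMSO replicate 3 alone.

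FOSB, a close relative of FOS that also gives the stable splice form called deltaFOSB, was the lowest of the 3 FOS genes (chromosome 19, 45467995 to 45475179, plus strand). Its values were 1.22, 2.05 and 1.44 FPKM with corilagin and 3.44, 3.37 and 4.06 FPKM in DMSO, and the groups did not overlap. The FOSB mean fell from 3.62 ± 0.381 to 1.57 ± 0.431 FPKM, to 0.433 of DMSO (log2 difference -0.86, SE 0.132, limma adjusted p = 0.0081), resting on 146 to 401 fragments per library. The pseudocount of 1 compresses this difference, which was -1.18 with a pseudocount of 0.1. The call was lost without corilagin replicate 3 (adjusted p = 0.0549), and the difference was -0.64 with the GC trend removed (adjusted p = 0.02). FOSB shares bases with ERCC1 on the opposite strand, which was at 17.5 ± 0.647 and 20.5 ± 3.25 FPKM and did not pass (adjusted p = 0.227). Gene values do not separate the deltaFOSB form.

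FOSL2, which encodes FRA2, a FOS protein with longer-lasting expression and no strong activation domain (chromosome 2, 28392448 to 28417312, plus strand), was at 22.0, 22.7 and 23.8 FPKM with corilagin and at 23.2, 22.0 and 18.4 FPKM in DMSO. The ranges overlapped. Its log2 difference of 0.11 (SE 0.102) did not pass in limma (adjusted p = 0.427), and it was 0.26 and passed with the GC trend removed (adjusted p = 0.0035). FOSL2 was 0.29 higher against DMSO replicate 3 alone, a single library that gives no spread of its own. The FOSL2 difference was 0.01 without that library (adjusted p = 0.809). FOS and FOSL2 have similar GC contents, 52.6 and 53.3%, and their ratio was compared within libraries. FOS was 1.54 to 1.73 times FOSL2 after corilagin and 2.96 to 3.60 times FOSL2 in DMSO. The summed FOS genes were at 59.2, 59.6 and 66.5 FPKM with corilagin and at 95.1, 90.6 and 88.7 FPKM in DMSO, 0.675 of the DMSO level, and FOSL2 supplied 37.0% ± 1.12 of that sum against 23.1% ± 2.06.

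Of the ratios computed, FOS over JUN differed most between groups. FOS was 8.01, 7.08 and 8.91 times JUN in corilagin replicates 1 to 3 and 24.0, 23.8 and 23.3 times JUN in DMSO. The 3 DMSO libraries were close together and all above the corilagin libraries. FOS over EGR1 was 0.598 ± 0.0347 after corilagin and 0.575 ± 0.0964 in DMSO with overlapping ranges. The sum of FOS genes over that of JUN genes was 0.328 to 0.379 after corilagin and 0.430 to 0.570 in DMSO.

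**Figure D3:**
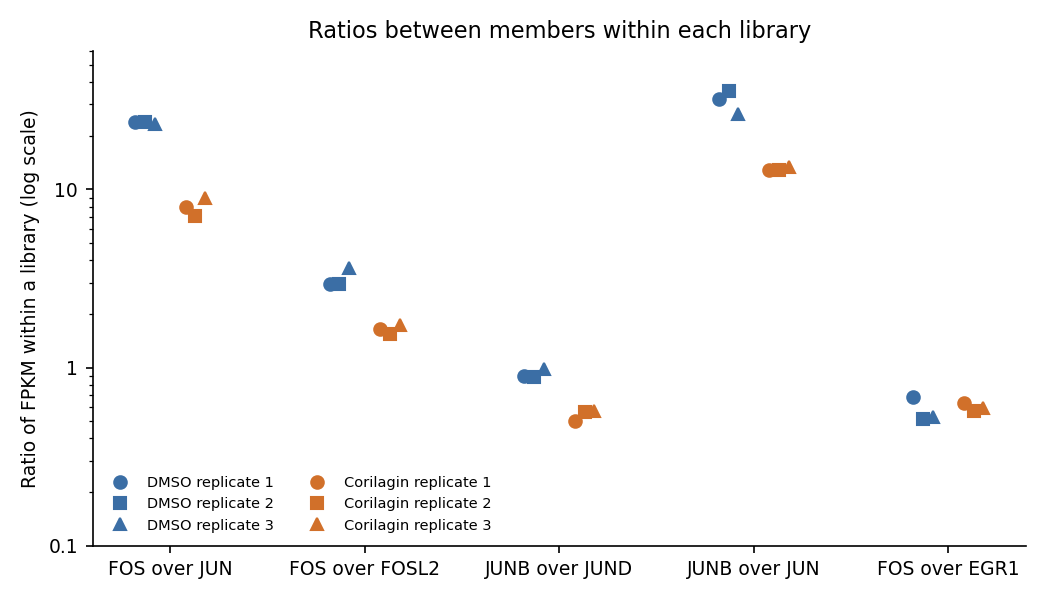
Ratios of FPKM between pairs of members within each library, on a log scale, with DMSO in blue and corilagin in orange and 1 symbol per replicate number. FOS over JUN lies at 23.3 to 24.0 in DMSO and 7.08 to 8.91 after corilagin, whereas FOS over EGR1 overlaps between the groups.

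EGR1 was by far the most abundant of the EGR genes, with 96.5 to 98.0% of their summed FPKM in every library. Its protein is an ERK-induced activator and, in myeloid cells, a factor linked to the monocytic path (chromosome 5, 138465490 to 138469315, plus strand). EGR1 was at 56.6, 61.5 and 69.6 FPKM with corilagin and at 99.9, 127 and 126 FPKM in DMSO. The lowest DMSO library, replicate 1, was still above the highest corilagin library. EGR1 fell from 118 ± 15.4 to 62.6 ± 6.54 FPKM, to 0.532 of DMSO (log2 difference -0.90, SE 0.124, limma adjusted p = 0.00609). It was -0.71 with the GC trend removed (adjusted p = 0.00903) and -1.0 against DMSO replicate 3 alone.

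EGR3, which is known as a target of EGR1 and of calcium signalling, was at 1.07, 1.22 and 1.52 FPKM with corilagin and at 1.74, 2.17 and 3.97 FPKM in DMSO. All corilagin FPKM values were below all DMSO values, and DMSO replicate 3 was far above the other 2. With the GC trend removed the groups overlapped, at 1.41 log2 units in corilagin replicate 3 and 1.294 in DMSO replicate 1. The EGR3 means were 1.27 ± 0.231 and 2.62 ± 1.18 FPKM, and the log2 difference of -0.63 (SE 0.213) did not pass in limma (adjusted p = 0.0644, or 0.149 with the GC trend removed). Without DMSO replicate 3 the difference was smaller, -0.38, but passed (limma adjusted p = 0.00385), in a setting where 77.3% of all genes tested passed. With the GC trend also removed, the EGR3 difference was -0.17 and did not pass (limma adjusted p = 0.167). The pseudocount of 1 compresses a gene at this level. With a pseudocount of 0.1 and all libraries, the EGR3 difference was -0.92 and did not pass (limma adjusted p = 0.0577). EGR2, a myeloid and Schwann cell factor (chromosome 10, 62811996 to 62919900, minus strand), had 28 to 42 fragments per library. It was at 0.411, 0.579 and 0.501 FPKM with corilagin and at 0.425, 0.376 and 0.592 FPKM in DMSO, with overlapping ranges and a log2 difference of 0.03 (SE 0.0686) in the fit without a filter (adjusted p = 0.769).

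IER2, a small nuclear protein known as an immediate early gene product (chromosome 19, 13150415 to 13154908, plus strand), was at 9.91, 10.2 and 11.4 FPKM with corilagin and at 15.4, 17.6 and 14.4 FPKM in DMSO. The groups did not overlap in FPKM. With the GC trend removed they overlapped, at 3.79 log2 units in corilagin replicate 3 and 3.768 in DMSO replicate 1. IER2 fell from 15.8 ± 1.65 to 10.5 ± 0.766 FPKM (log2 difference -0.55, SE 0.102, limma adjusted p = 0.0136). Its GC content of 61.7% is among the highest of the members. With the GC trend removed the difference was -0.28 (adjusted p = 0.0362), and the call was lost without any one corilagin library or DMSO replicate 2 (adjusted p of 0.0558 to 0.0775).

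**Figure D4:**
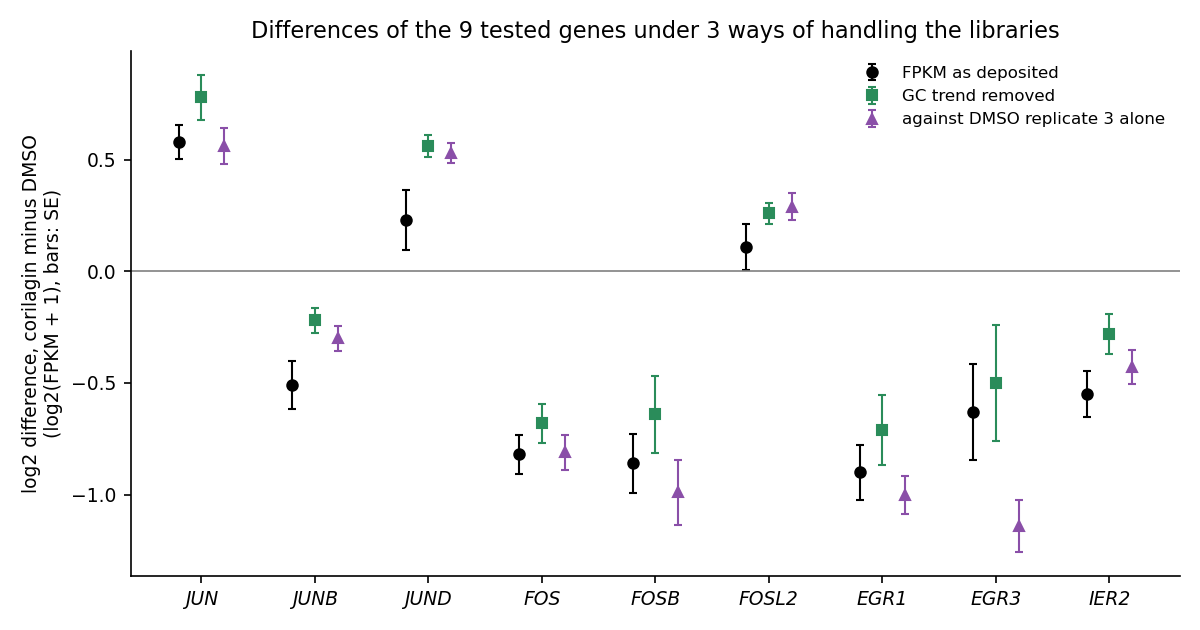
Log2 difference of corilagin from DMSO with its SE for the 9 tested genes, from FPKM as deposited (black), with each library's GC trend removed (green) and against DMSO replicate 3 alone (purple). JUN lies above 0 and FOS, FOSB, EGR1, JUNB and IER2 below 0 in all 3, while JUND goes from 0.23 to 0.56 with the trend removed.

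JUN, FOSL2 and EGR1 have GC contents of 56.7, 53.3 and 55.4% and lie in the same eighth of genes by GC, with log2 differences of 0.58, 0.11 and -0.90. With the GC trend removed, these differences were 0.78, 0.26 and -0.71. JUN and FOSB, at 56.7 and 57.7%, had log2 differences of 0.58 and -0.86, or 0.78 and -0.64 with the trend removed. The part of GC content in these differences was not tested. The order of levels also changed: in DMSO the EGR1 mean was the highest, followed by JUND, JUNB and FOS, with overlapping ranges between EGR1 and JUND and between JUND and JUNB. After corilagin JUND was the highest without overlap, EGR1 and JUNB overlapped in second place, and JUN stood above FOSB, the reverse of DMSO.

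Further genes of the same families also moved both ways. Of 10 tested genes among the other AP-1 and small MAF factors, 2 were higher and 3 lower, with a median log2 difference of -0.10. Of all genes tested, 11.9% were higher and 13.5% lower. ATF3, a stress-induced repressor that pairs with JUN proteins, rose 4.52-fold to 8.48 ± 0.83 FPKM, and JDP2, a JUN-binding repressor of AP-1, rose 1.45-fold to 4.74 ± 0.0338 FPKM. FOSL1, which encodes FRA1 and is itself an ERK and AP-1 target, fell from 7.86 ± 1.65 to 4.53 ± 0.221 FPKM (limma adjusted p = 0.0218), and DMSO replicate 3 was at 5.96 FPKM. Its log2 difference of -0.66 was -0.42 with the GC trend removed. MAFK fell to 0.647 of DMSO, and its value in DMSO replicate 3, 7.78 FPKM, was close to the highest corilagin value of 7.33 FPKM. The MAFK difference of -0.55 was -0.27 with the GC trend removed (adjusted p = 0.0375). BATF3, named here because it completes the count, was lower by 0.31 on the log2 scale and was not called with the GC trend removed (adjusted p = 0.85).

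The other immediate early genes were split, with 6 of 23 tested genes higher, 7 lower and 10 not passing, and a median of 0.14. The largest falls were in MYC, to 0.401 of DMSO, and in DUSP2, a nuclear phosphatase of MAP kinases, from 12.8 ± 0.92 to 5.37 ± 0.80 FPKM. The largest rises were in ZFP36L1, a decay factor for AU-rich mRNAs, from 4.31 ± 0.357 to 9.92 ± 0.314 FPKM, and in HBEGF, an EGF receptor ligand, from 8.32 ± 0.346 to 15.4 ± 1.46 FPKM. All 4 were also called with the GC trend removed. With the trend removed 11 of the list were higher and 6 lower. The shares of all genes were 11.9% higher and 13.5% lower, or 26.6 and 18.8% with the trend removed.

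**Figure D5:**
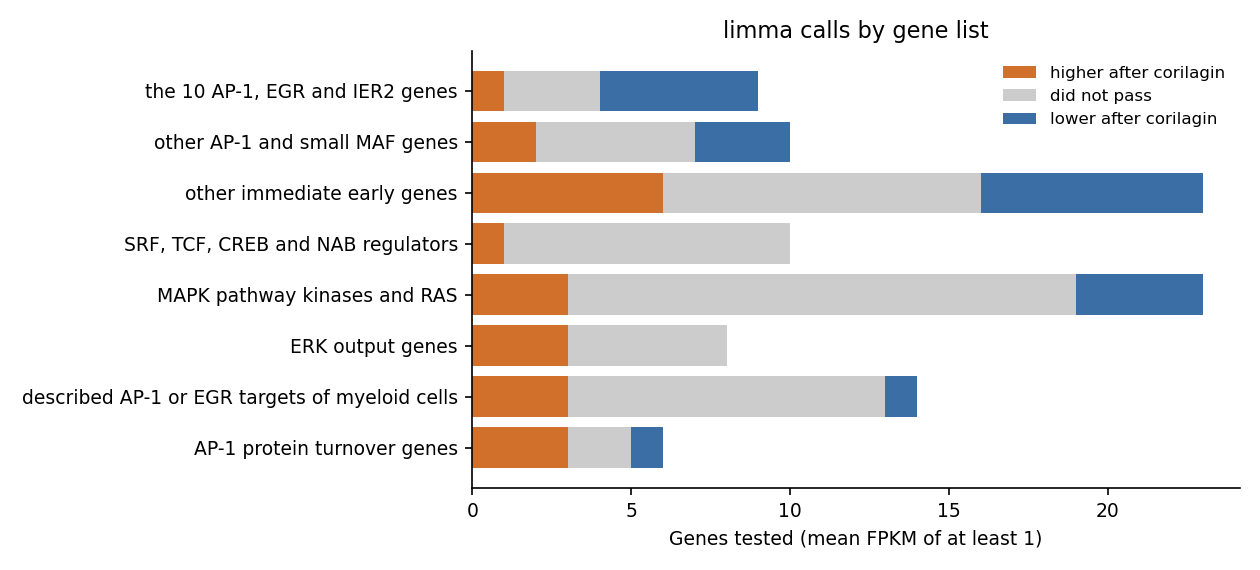
Number of tested genes per list that were higher (orange), did not pass (grey) or were lower (blue) after corilagin in limma. The 10 AP-1, EGR and IER2 genes have 5 of 9 lower and 1 higher. The ERK output list, which leaves out EGR1 and FOSL1, has 3 of 8 higher and none lower.

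Genes upstream and downstream of the members were counted in the same way, beside 25.4% of all genes passing (11.9% higher, 13.5% lower). Among the regulators SRF, the ETS-type cofactors, CREB factors and the EGR corepressors NAB1 and NAB2, 1 of 10 was higher, none lower and 9 did not pass. The one was ATF1, a CREB relative, at 24.9 ± 1.19 FPKM against 11.8, 12.0 and 21.8 FPKM in the DMSO libraries, a log2 difference of 0.73 that was 0.21 with the GC trend removed. Of 23 tested MAP kinase pathway genes 3 were higher and 4 lower. RPS6KA4 (MSK2), a kinase that acts on CREB and histone H3 at immediate early genes, fell from 26.4 ± 5.08 to 13.1 ± 0.25 FPKM, and MAPKAPK3, a kinase downstream of p38, to 0.633 of DMSO. The MAPKAPK3 difference of -0.63 was -0.42 with the GC trend removed. BRAF rose 1.65-fold, with a log2 difference of 0.54 that was 0.23 with the trend removed, and the 1.76-fold rise of RPS6KA5 (MSK1) was not called with the GC trend removed (adjusted p = 0.643).

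Of 8 tested ERK output genes, 3 were higher and none lower, with a median log2 difference of 0.24 (5 higher and none lower with the GC trend removed). Of all genes tested, 11.9% were higher and 13.5% lower, or 26.6 and 18.8% with the GC trend removed. EGR1 and FOSL1, ERK-induced genes counted in other lists, fell (log2 differences of -0.9 and -0.66). DUSP5, a nuclear ERK phosphatase, rose from 2.74 ± 0.323 to 6.57 ± 1.0 FPKM (log2 difference 1.01, SE 0.12, limma adjusted p = 0.00373), and EMP1, a membrane protein, rose 2.61-fold. ETV5, an ETS factor named here because it completes the count, was at 22.7 ± 0.56 and 15.8 ± 2.68 FPKM (adjusted p = 0.0306). Genes described as AP-1 or EGR targets in myeloid cells were higher in 3 and lower in 1 of 14 cases, with a median of 0.21. TNF, the inflammatory cytokine, fell from 113 ± 8.35 to 55.4 ± 3.44 FPKM, to 0.492 of DMSO, while ITGAX (CD11c) rose 1.77-fold and the cytokine IL1B 1.72-fold. With the GC trend removed 10 of these targets were higher and 2 lower, in a setting where 45.4% of all genes passed.

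Among genes for turnover of AP-1 proteins, 3 of 6 were higher and 1 lower (2 and 2 with the GC trend removed). The shares of all genes were 11.9 and 13.5%, or 26.6 and 18.8% with the trend removed. FBXW7 and ITCH, ubiquitin ligases that act on JUN proteins, rose 1.48-fold and 1.54-fold, and ITCH was not called with the GC trend removed (adjusted p = 0.176). DDB1, an adaptor of CUL4 ligases, fell to 0.664 of DMSO. COP1, a ligase for JUN named here because it completes the count, was higher by 0.36 on the log2 scale. Protein levels were not measured.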

How the data were processed

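Poly(A) RNA from MV411 cells, 3 corilagin and 3 DMSO libraries, was sequenced in paired-end mode, per the labels' protocols. The submitters' processing notes name GRCh38, HISAT2 2.1.0, HTSeq 0.9.1, fastp 0.22.0 and DESeq 1.38.3 and give no role or settings here. The authors deposited FPKM, which divides fragments by gene length and library total.

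Groups came from the labels. Differences were tested 2-sided with limma 3.58.1 in R 4.3.3, using its trended eBayes step and no covariates. The values were log2(FPKM + 1) in the 6 libraries, and genes averaging under 1 FPKM were left out. Benjamini-Hochberg adjustment covered all genes kept, at a threshold of 0.05. Fragments were recovered as whole multiples (within 0.01) that make gene lengths whole. GENCODE 29 gave coordinates, GC content of the longest coding transcript and, for FOS among others, the multiple, so fragment numbers are inferred. The GC trend was removed per library with a natural spline of 5 degrees of freedom, which also takes out any true difference that follows GC content. On simulated FPKM for this comparison (9851 genes tested), limma called 86 of 99 genes changed 1.5-fold, 98 of 98 changed 2-fold and 9 unchanged genes. The simulated libraries did not hold the GC split of the DMSO group. These counts therefore do not give the error rates of the real comparison.

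The members, lists and alternatives were chosen with earlier results of these data known. Named genes were all members and, per list, up to 2 rises and 2 falls with the largest log2 differences among those that passed. The alternatives were other pseudocounts, filters, scalings, GC handling, a replicate block, limma-voom and leaving out libraries. A marker gene among those checked is not reported here.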

Additional observations from a re-analysis of the deposited data

How the results depend on the processing

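The direction of each of the 9 tested genes was the same under each of the 19 or 20 alternatives run for it. FOS, EGR1 and JUN passed under all of theirs, with log2 differences of -0.89 to -0.60, -1.01 to -0.55 and 0.48 to 0.90. The number of the 9 genes passing was 6, and leaving out 1 library gave 3 to 7, the lowest without corilagin replicate 3. It stayed within 1.5 times of 6 under every other alternative. JUND also passed with rescaling to equal library sums (0.35, adjusted p = 0.0494), which moved the median of all genes from 0.035 to 0.136. Over all genes, 2502 passed, against 4472 with the GC trend removed, 6424 with it removed and DMSO replicate 3 left out, 3747 against DMSO replicate 3 alone, 4212 with the block and the GC trend removed, and 307 to 7627 with 1 library left out. The replicate block gave 7 genes passing, with EGR3 added (adjusted p = 0.0248). With the GC trend also removed, the replicate block gave 9. The other member calls under the block were the same. Same-numbered libraries deviated together with r of 0.28, 0.079 and 0.339 across genes. Corilagin replicate 1 did so with DMSO replicate 2 as well (0.279), and the other differently numbered pairs gave -0.323 to 0.064. The labels state no pairing, so the numbers were not taken to pair the samples. The fit against DMSO replicate 3 alone, with 9 passing, assumes that this library varies like the corilagin group. Versions with length trends removed, or with the GC trend removed and DMSO replicate 3 left out, were added after the data were seen. The planned quasi-likelihood count test was not run, since the deposited unit is FPKM. EGR2 had 28 to 42 fragments per library and was tested in the fit without a filter alone.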
